A study of Rattus norvegicus with 18 samples.

Results

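Extraocular muscle (EOM), which moves the eye, and diaphragm (DIA), which drives breathing, both contract almost without rest, and their RNA profiles were compared in control rats. The comparison used 6 of the 18 arrays of the series, 3 of EOM and 3 of DIA, picked by their control labels and not by any measured value. The control animals were female Lewis rats, 6 to 8 weeks old at the start, that were injected once with complete Freund's adjuvant (CFA) supplemented with Mycobacterium tuberculosis and without acetylcholine receptor (AChR). Control therefore means adjuvant-treated, and no array of untreated rats was used. Rectus muscles of the orbit and DIA were removed 6 weeks after the injection, and the RNA on each array came from several pooled rats. Arrays outside this comparison were read only for reference. These were the 6 EOM and DIA arrays from experimental autoimmune myasthenia gravis (EAMG), whose rats had been given AChR in the same adjuvant, and the 3 control arrays of extensor digitorum longus (EDL), a limb muscle of mostly fast fibers.

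A probe set is a group of short probes for one transcript, and its signal is a linear intensity scaled alike on every array. The arrays carry 31042 probe sets besides their own controls, and the 11031 whose highest signal among the 6 arrays was 400 or more were tested with limma on log2 signals. A probe set that reached 400 in only 1 muscle was tested through that muscle, so its direction was largely set by this minimum. A probe set passed at a p under 0.05 after Benjamini-Hochberg adjustment over all 11031. Differences are EOM minus DIA on the log2 scale, with the standard error (SE) of limma, and levels are mean signals ± SD of 3 arrays. A signal of 400 was taken by the study as 5 times background, so signals under 80 were read as not above background and a fold against them, with each signal under 80 counted as 80, is given as a lower bound. The log2 difference of such a gene is the fitted value of limma and is not a bound. Signals of different probe sets cannot be compared with each other, so arrays are set side by side for 1 probe set or for the sum of 1 list. Such a sum weighs its brightest probe sets most. Each gene is represented by its probe set of highest mean signal among those tested. By this rule 7273 genes were followed.

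The 2 muscles separated more than their replicates did. Arrays of EOM correlated with each other at r = 0.977 to 0.984 and arrays of DIA at 0.967 to 0.976, whereas pairs of an EOM and a DIA array gave 0.870 to 0.887, all across the 11031 probe sets. Between 29.1% and 30.5% of probe sets reached 400 on an array. The 3' to 5' signal ratio of GAPDH, a gauge of RNA breakdown, was 1.20 ± 0.00611 (SD, n = 3) in EOM and 1.24 ± 0.0733 in DIA (two-sided exact permutation test, p = 0.6, with 0.1 the smallest value that 3 against 3 arrays can give). Array DIA control 2 had the highest ratio, 1.33.

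Signals were higher in EOM for 1644 probe sets, which is 14.9% of those tested, and higher in DIA for 1572, or 14.3%. A difference of at least 2-fold was reached by 451 of the former (4.09% of all tested) and 376 of the latter (3.41%). Counted by gene, 1133 (15.6%) were higher in EOM and 1049 (14.4%) in DIA, and the median difference over all genes was log2 0.0095. These shares are the background for the count of each gene or marker list below. The count was lower without array EOM control 3, when 1042 and 1043 probe sets passed, and lower with no signal minimum, when 759 and 637 passed of 31042. With signals under 80 counted as 80, 9 of the probe sets higher in EOM and 1 of those higher in DIA (Myom2) differed by at least log2 5, as the plot of difference against level shows.

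**Figure D1:**
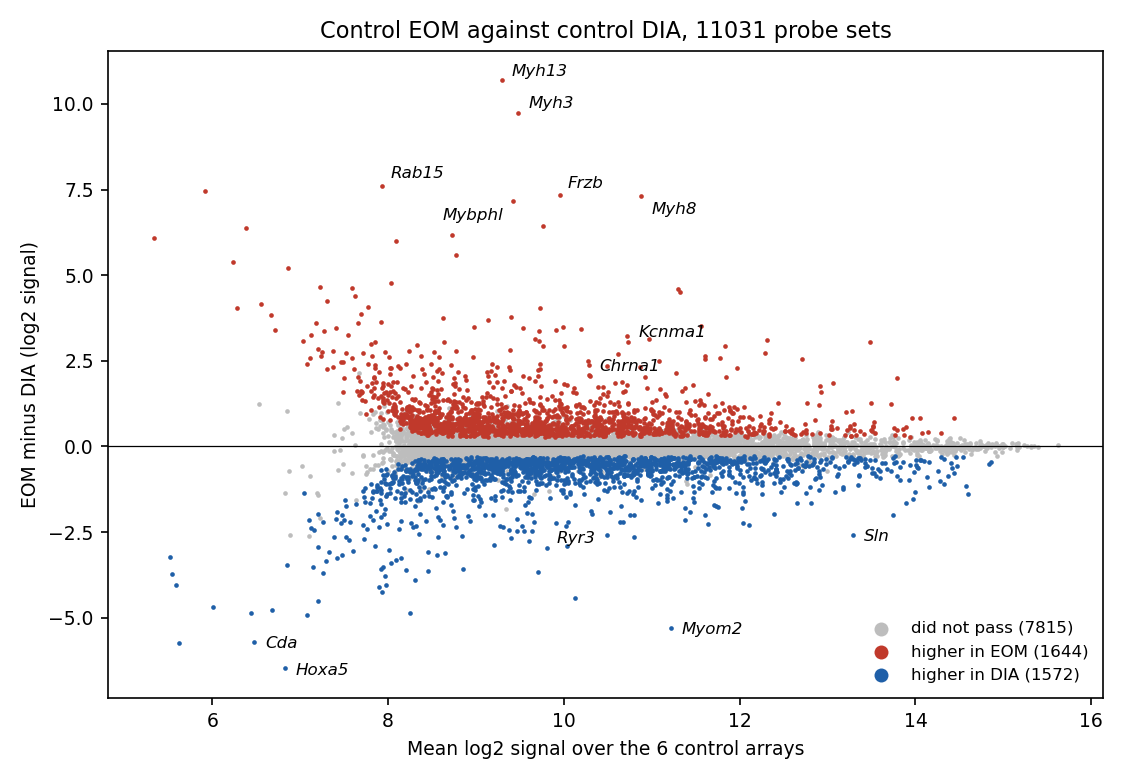
Difference between control EOM and control DIA (EOM minus DIA, log2 signal) against the mean log2 signal of the 6 control arrays for 11031 probe sets. Red marks the 1644 probe sets that were higher in EOM and blue the 1572 that were higher in DIA at an adjusted p under 0.05 by limma. Signals are plotted as deposited, so points of genes with 1 muscle under the background of 80, such as Myh13, Myh3 and Hoxa5, lie farther from 0 than their bounds in the text.

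Myosin heavy chains are the motors of the sarcomere. Adult limb muscle uses slow (Myh7) and fast (Myh2, Myh1, Myh4) forms, while the embryonic (Myh3) and neonatal (Myh8) forms mark developing or regenerating fibers, and Myh13 is the form known for its restriction to eye and laryngeal muscle. EOM is known to keep developmental forms into adult life. In the data, 5 of 9 tested members of the family were higher in EOM and 3 in DIA, and the 3 largest differences were those of Myh13, Myh3 and Myh8.

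Myh13 had signals of 27688, 24384 and 24618 on the 3 EOM arrays and 36.5, 13.4 and 7.45 on the DIA arrays. Every DIA value was under background, which makes the signal at least 319-fold higher in EOM (log2 10.70, SE 0.51, adjusted p = 2.44e-05 from limma). Myh3 gave 21364, 22521 and 19047 in EOM and 15.0, 82.9 and 11.6 in DIA (log2 9.75, SE 0.68, adjusted p = 1.16e-04). With values under 80 counted as 80, embryonic myosin was at least 259-fold higher in EOM. Myh8 gave 26230.2, 22686 and 22772 in EOM and 130.2, 142 and 177 in DIA, a 161-fold difference (log2 7.33, SE 0.14, adjusted p = 8.22e-07). No EOM array came near a DIA array for any of these 3 genes. EDL was far below EOM as well, with means of 301 ± 18.1, 372 ± 162 and 117 ± 37.8 for Myh13, Myh3 and Myh8.

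The adult forms differed less. Myh4, the fastest limb form (type IIB), was higher in EOM at 30502, 28030.2 and 26735 against 4227, 11564 and 7283 in DIA (log2 2.00, SE 0.33, adjusted p = 0.00449). Its DIA arrays spread widely but stayed under all EOM arrays, and its EDL mean of 40598 ± 4642 was above both. Myh7, the slow form, was 2.59-fold higher in DIA, at 14903, 15652 and 15631 in EOM and 38772, 40879 and 40087 in DIA (log2 -1.37, SE 0.08, adjusted p = 6.59e-05), and a dimmer probe set of it passed in the same direction. Myh2 (type IIA) was also higher in DIA, with 25417 ± 342 in EOM and 34729 ± 1163 in DIA (log2 -0.45, SE 0.08, adjusted p = 0.00702), as was Myh14, a non-muscle myosin (log2 -0.83, SE 0.10, adjusted p = 0.00118). Myh1 (type IIX) is the one member of the family that did not pass, at 23379 ± 956 in EOM and 19706 ± 1354 in DIA (log2 0.25, SE 0.09, adjusted p = 0.0892), though it passed after quantile normalization. A dimmer probe set of Myh1 passed the other way, with mean signals of 2071 in EOM and 4279 in DIA. Myh6, the alpha cardiac form, was higher in EOM at 802 ± 144 against 116 ± 21.9 in DIA (log2 2.79, SE 0.19, adjusted p = 1.01e-04). Myosin genes are close in sequence, and part of a signal may come from a related transcript, which these values cannot resolve.

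Position in the genome can be set beside these differences. In the RefSeq annotation of assembly GRCr8, Myh3, Myh2, Myh1, Myh4, Myh8 and Myh13 lie in this order on chromosome 10. The genes with the largest differences, Myh3 at one end and Myh8 and Myh13 at the other, flank the 3 adult fast genes, whose differences ran from -0.45 for Myh2 to 2.00 for Myh4. Myh6 and Myh7 both lie on chromosome 15 and differed in opposite directions.

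**Figure D2:**
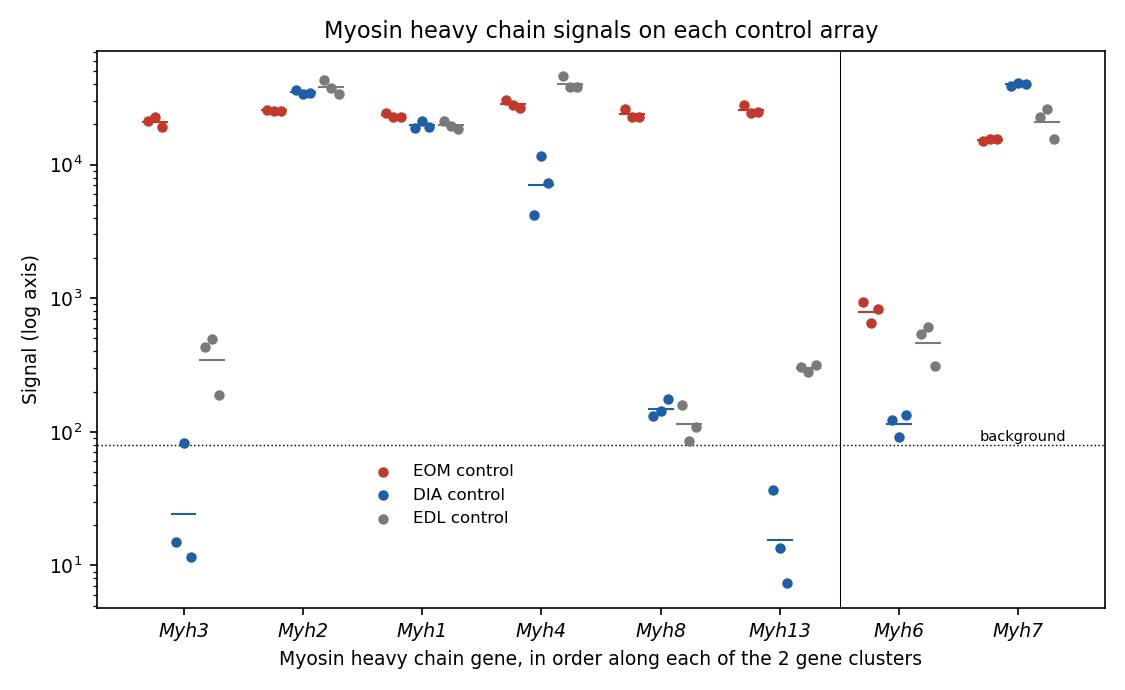
Signals (log axis) of 8 myosin heavy chain genes on each control array of EOM (red), DIA (blue) and EDL (grey), with the geometric mean of 3 arrays as a bar and the background level of 80 dotted. Genes are in chromosomal order, with the chromosome 10 cluster left of the vertical line and Myh6 and Myh7 right of it. Myh3, Myh8 and Myh13 lie far above the dotted line on all EOM arrays and near or under it on all DIA arrays.

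The stretch of DNA before the start of Myh3 is shown because this gene was abundant in EOM and at or near background in DIA. It is the 250 bases upstream of the RefSeq start on the plus strand (chr10:52268935-52269184, GRCr8). Capitals mark matches to TATAAA, the letters of a TATA box, and to CANNTG, the letters of an E-box that myogenic factors can bind, searched on both strands.
Myh3: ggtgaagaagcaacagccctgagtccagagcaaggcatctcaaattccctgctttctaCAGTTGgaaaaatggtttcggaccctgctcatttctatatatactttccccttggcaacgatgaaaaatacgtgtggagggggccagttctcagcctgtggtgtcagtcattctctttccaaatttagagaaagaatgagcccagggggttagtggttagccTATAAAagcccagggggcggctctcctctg
TATAAA lay 30 to 25 bases before the start, and a single CANNTG lay 192 to 187 bases before it. Of all 33469 rat windows of this length and place, 12.9% held TATAAA and 65.5% held CANNTG. The arrays do not measure use of either match.

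Other sarcomere genes were mostly higher in DIA. Of 12 genes of the slow contractile apparatus, 10 were higher in DIA, 1 was higher in EOM and the list had a median of -0.90, against 14.4% and 15.6% of all genes and a median of log2 0.0095. In the fit of all 18 arrays 6 of the 10 passed. Myl3, the slow essential light chain, had signals of 6854, 6460.2 and 7204 in EOM and 28656, 25711 and 27942 in DIA, a 4.01-fold difference (adjusted p = 2.32e-05 from limma). Tnnt1, slow troponin T, gave 9819, 11120.2 and 10205 in EOM and 25210.4, 26054 and 26430.5 in DIA (log2 -1.32, SE 0.09, adjusted p = 1.06e-04). All DIA arrays were above all EOM arrays for both. The gene higher in EOM was Ankrd2, a stretch-responsive protein of slow muscle, at 1062 ± 95.3 in EOM and 636 ± 82.6 in DIA (log2 0.74, SE 0.13, adjusted p = 0.00521), and it did not pass in the fit of all 18 arrays. Myoglobin (Mb), the oxygen store of red fibers, was the member that did not pass (log2 0.07, SE 0.09, adjusted p = 0.602).

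The Z-disc and M-band anchor thin and thick filaments. Of 30 genes of these structures, some of which are also on the slow list, 17 were higher in DIA, 4 were higher in EOM and the median was -0.37. Myom2, the M-band protein M-protein of fast fibers, was the extreme, with 416, 418 and 317 in EOM and 13401, 16634 and 15128 in DIA (log2 -5.30, SE 0.14, adjusted p = 3.75e-06). That is a 39.4-fold difference with no overlap, and the EDL mean was 25372 ± 1921. Lmod2 and Lmod3, leiomodins that build thin filaments, were 3.17-fold and 3.38-fold higher in DIA. Myoz2, a Z-disc calsarcin of slow fibers, was higher in DIA at 9452 ± 658 in EOM and 27447 ± 770.2 in DIA (log2 -1.54, SE 0.09, adjusted p = 6.52e-05), as was Actn2, the Z-disc alpha-actinin, at 15772 ± 472 and 28635 ± 210.3. Tmod1, a cap of the thin filament, was the largest difference the other way (log2 0.77, SE 0.09, adjusted p = 8.71e-04). Ldb3, a Z-disc protein, had 5 tested probe sets, of which 2 were higher in DIA, 1 was higher in EOM and 2, including the brightest, did not pass.

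Light chains and their kinases gave 4 of 7 higher in DIA and 0 in EOM by limma, with 0 in EOM at an unadjusted p under 0.05. Mylk3, the kinase of the cardiac regulatory light chain, had 147, 132 and 122 in EOM and 1493, 1605 and 1707 in DIA (log2 -3.58, SE 0.11, adjusted p = 5.08e-06), while EDL was at 141 ± 32.2. Fast contractile genes divided, with 2 of 15 higher in EOM (Myh4 and Mybph, a myosin-binding protein; 1 without array EOM control 3) and 6 in DIA. Tnnt3, Tnni2 and Tnnc2, the fast troponins, had differences of 0.06, 0.04 and 0.0078 on the log2 scale and did not pass.

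Genes known from heart or from developing muscle went both ways, with 7 of 14 higher in EOM and 5 in DIA (3 in DIA without array EOM control 1 or EOM control 3). Tnnt2, cardiac troponin T, was 4.94-fold higher in EOM, at 1494 ± 227 against 302 ± 48.0 (log2 2.31, SE 0.16, adjusted p = 1.17e-04). Tnni3, cardiac troponin I, was higher in DIA instead, at 56.7, 60.0 and 99.9 in EOM and 917, 1017 and 632 in DIA, at least 9.73-fold (log2 -3.59, SE 0.26, adjusted p = 1.47e-04). Mybphl, a relative of myosin-binding protein H found in heart, was at least 98.6-fold higher in EOM, at 8103, 8282 and 8342 against 26.2, 91.2 and 78.1. Smyd2, a methyltransferase that is not on this list, was 12.7-fold higher in DIA (log2 -3.67, SE 0.16, adjusted p = 1.68e-05).

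Further genes with the largest excess in EOM do not belong to the sarcomere. Rab15, a GTPase of endosome recycling, had signals of 3517, 3208 and 3512 in EOM and was under background on all DIA arrays at 7.00, 12.9 and 59.2, at least a 42.6-fold difference. Frzb, a secreted Wnt antagonist, gave 13492, 12291 and 12171 in EOM and 57.0, 91.0 and 89.7 in DIA, at least a 146-fold difference (log2 7.35, SE 0.19, adjusted p = 3.75e-06), and its other probe set passed in the same direction. Fxyd6, a regulator of the sodium pump, gave 12104, 12163 and 12601 in EOM and 626, 453 and 545 in DIA (log2 4.52, SE 0.13, adjusted p = 4.23e-06). For each of these 3 genes EDL was far below EOM too, with means of 36.7 ± 25.4, 161 ± 37.0 and 506 ± 42.3. The same side was taken by Guca1a, an activator of guanylate cyclase known from photoreceptors, by Klk1, tissue kallikrein, by Tinag, a basement membrane antigen, and by Map2, a microtubule protein of neurons, at bounds of at least 41.7, 34.5, 27.3 and 17.2-fold. Wdr17 and Armh4 were at least 9.48 and 11.3-fold higher in EOM. Tbc1d10c was at least 11.9-fold higher in EOM than in DIA, with EDL at a mean of 713 and EOM at 959. All 12 retina and lens markers on the array were under 400 on every one of the 6 arrays, with the list summing to 387 to 469 in EOM and 337 to 408 in DIA.

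Contraction is triggered by calcium release through ryanodine receptors and ended by calcium pumps (SERCA) that return it to the sarcoplasmic reticulum. The small proteins phospholamban (Pln) and sarcolipin (Sln) hold the pumps back. The list of calcium genes had 8 of 31 members higher in EOM and 10 in DIA with a median of 0.0049, against 15.6% and 14.4% of all genes. Sln was 6.01-fold higher in DIA, at 4096, 4000.0 and 4182 in EOM and 27256, 22509 and 24223 in DIA (log2 -2.59, SE 0.10, adjusted p = 1.12e-05). Pln went the other way, at 5427, 5499 and 5577 in EOM and 2559, 2595 and 2670.2 in DIA (log2 1.08, SE 0.08, adjusted p = 1.61e-04), and its other probe set passed in the same direction. The 2 genes differed between the muscles in opposite directions, and both were far lower in EDL, at 518 ± 248 for Sln and 212 ± 27.3 for Pln.

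Among the pumps, Atp2a2, the slow and cardiac SERCA, was higher in DIA at 16439.8 ± 1081 in EOM and 36471 ± 2229.9 in DIA (log2 -1.15, SE 0.10, adjusted p = 2.56e-04), while the fast pump Atp2a1 did not pass (log2 0.06, SE 0.09, adjusted p = 0.658). Of the release channels, Ryr3, a minor form in muscle, was 7.76-fold higher in DIA at 393, 322 and 261 in EOM and 2684, 2530.4 and 2269.5 in DIA (log2 -2.96, SE 0.16, adjusted p = 4.18e-05). Ryr1, the main channel, was also higher in DIA but by less (log2 -0.73, SE 0.13, adjusted p = 0.00546), with the voltage sensor Cacna1s (log2 -0.53, SE 0.11, adjusted p = 0.01) and the cardiac store protein Casq2 (log2 -1.04, SE 0.11, adjusted p = 6.74e-04). S100a1, a calcium-binding protein that acts on the ryanodine receptor, was 5.68-fold higher in EOM at 5534, 4881 and 5073 against 975, 774 and 991 (log2 2.51, SE 0.12, adjusted p = 2.90e-05). Stim1, the store sensor, was higher in EOM as well (log2 0.97, SE 0.09, adjusted p = 3.43e-04). Trdn, a partner of the release channel, had 4 tested probe sets, of which the brightest did not pass, 1 was higher in EOM and 1 in DIA.

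The endplate is where the motor nerve meets the fiber. AChR is built there from the subunits Chrna1, Chrnb1, Chrnd and, in adults, Chrne, and agrin acts through Lrp4 and Musk to cluster it. Of 15 tested genes of the endplate, 8 were higher in EOM, 0 were higher in DIA, where 14.4% of all genes were, and the median was 0.69. Chrne, Etv5 and Utrn reached the signal minimum on EOM arrays only, so the direction of these genes was largely set by that minimum. A further 8 genes of the list were on the array and not tested. At an unadjusted p under 0.05, limma also found none of the 15 higher in DIA.

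Chrna1 had signals of 2588, 2508 and 2596 in EOM and 529.9, 608 and 689 in DIA, a 4.23-fold difference (log2 2.08, SE 0.11, adjusted p = 4.62e-05). Chrne, the adult subunit, gave 937, 863 and 986 in EOM and 170.3, 305 and 271 in DIA (log2 1.94, SE 0.21, adjusted p = 7.91e-04). Chrnd gave 2412, 2182 and 2573 in EOM and 776, 748 and 951 in DIA (log2 1.54, SE 0.13, adjusted p = 2.14e-04). For the 3 subunits every EOM array was above every DIA array, while Chrnb1 did not pass (log2 0.69, SE 0.24, adjusted p = 0.0761). The fetal subunit Chrng was under background on all 6 arrays. Lrp4, the agrin receptor, was 4.18-fold higher in EOM (log2 2.06, SE 0.13, adjusted p = 8.81e-05), and Etv5, an Ets factor that drives synaptic genes, was higher as well (log2 1.67, SE 0.18, adjusted p = 7.47e-04). A dimmer probe set of Etv5 overlapped between the muscles and did not pass by limma (log2 0.44, SE 0.30, adjusted p = 0.321). Prkar1a, a regulatory subunit of protein kinase A, was at 14161 ± 847 in EOM and 6958 ± 267 in DIA (log2 1.02, SE 0.09, adjusted p = 3.16e-04). Utrn, which anchors AChR under the synapse (log2 0.77, SE 0.14, adjusted p = 0.00627), and Colq, the tail of endplate acetylcholinesterase (log2 0.41, SE 0.12, adjusted p = 0.0463), completed the 8. Rapsn (log2 0.60, SE 0.21, adjusted p = 0.0732), Dok7 (log2 0.03, SE 0.12, adjusted p = 0.87) and Agrn (log2 0.08, SE 0.15, adjusted p = 0.737) did not pass.

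The promoters of the 3 AChR subunit genes that were higher in EOM are shown because these members moved together. Each is the 250 bases before the RefSeq start, written 5′ to 3′ on the strand of the gene, from GRCr8: Chrna1 at chr3:78877354-78877603 on the minus strand, Chrnd at chr9:95310066-95310315 on the plus strand and Chrne at chr10:55834155-55834404 on the minus strand. Capitals mark CANNTG, the E-box letters, and TTCCGG, the core letters of the N-box known from synaptic promoters, both searched on the 2 strands.
Chrna1: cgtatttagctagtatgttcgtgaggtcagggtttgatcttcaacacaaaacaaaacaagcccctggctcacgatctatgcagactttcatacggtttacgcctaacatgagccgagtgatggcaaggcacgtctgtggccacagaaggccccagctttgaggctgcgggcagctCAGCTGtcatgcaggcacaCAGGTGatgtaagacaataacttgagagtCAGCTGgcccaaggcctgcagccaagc
Chrnd: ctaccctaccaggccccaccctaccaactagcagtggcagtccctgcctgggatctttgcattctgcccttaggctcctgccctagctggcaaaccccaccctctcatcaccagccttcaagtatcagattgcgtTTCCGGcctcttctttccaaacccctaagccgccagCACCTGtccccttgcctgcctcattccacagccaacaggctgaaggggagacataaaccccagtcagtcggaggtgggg
Chrne: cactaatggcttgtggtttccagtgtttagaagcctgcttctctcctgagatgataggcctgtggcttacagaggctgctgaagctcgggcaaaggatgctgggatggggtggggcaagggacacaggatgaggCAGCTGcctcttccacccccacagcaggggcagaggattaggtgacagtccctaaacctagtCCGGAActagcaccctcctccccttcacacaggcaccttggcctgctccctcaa
Chrna1 held 3 matches to CANNTG and 0 to TTCCGG, while Chrnd and Chrne held 1 of each. TTCCGG occurred in 12.6% and CANNTG in 65.5% of all 33469 windows, and no match overlapped another in these 3 windows.

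The tested markers of nerve were also higher in EOM. All 7 tested markers of Schwann cells and myelin were higher in EOM, with a median of 1.40. Egr2, Mal and Prx reached the signal minimum on EOM arrays only, so the direction of these markers was largely set by that minimum. A further 4 on the array were not tested. Mbp, a main myelin protein, gave 4608, 3763 and 3688 in EOM and 623, 858 and 447 in DIA (log2 2.69, SE 0.23, adjusted p = 2.84e-04), and the signals of the 11 markers on the array summed to 18933 to 22773 in EOM and 6661 to 8805 in DIA. Of the 12 neuron markers on the array 2 were tested and both were higher in EOM. Both reached the signal minimum on EOM arrays only, so their direction was largely set by that minimum. The other 10 were not tested. Nefm, a neurofilament of axons, had 897, 749 and 638 in EOM and stayed under background in DIA at 36.3, 25.8 and 28.5, at least a 9.42-fold difference. Snap25, which fuses synaptic vesicles in nerve endings, gave 477, 281 and 275 in EOM and 5.16, 10.9 and 2.06 in DIA, also under background there and at least 4.16-fold lower than in EOM. The neuron list summed to 2256 to 3110.2 in EOM and 721 to 958 in DIA, and Tubb3 and Syt1 were under 80 in the mean of each muscle. The share of nerve in the dissected tissue was not measured, and its part in the endplate differences was not tested. In pooled tissue, more cells of a type and more RNA per cell cannot be told apart.

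Channels and pumps of the fiber membrane gave 6 of 10 genes higher in EOM and 2 in DIA. Kcnma1, the large-conductance potassium channel opened by calcium, had 5298, 4523 and 4986 in EOM and 561, 588 and 622 in DIA (log2 3.06, SE 0.10, adjusted p = 5.30e-06), and both of its probe sets passed. Beta subunits of the sodium pump differed in opposite directions: Atp1b1 was higher in EOM at 20634 ± 377 against 8829 ± 660.3 (log2 1.23, SE 0.09, adjusted p = 1.67e-04), whereas Atp1b2 was higher in DIA at 1329 ± 89.0 in EOM against 4006 ± 363 (log2 -1.59, SE 0.11, adjusted p = 9.48e-05). Atp1b4, a muscle relative of these subunits, was 5.47-fold higher in DIA (log2 -2.45, SE 0.16, adjusted p = 8.57e-05).

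Hox genes give cells their place along the body axis, and they are known to be off in the front of the head, from which eye muscles arise, and on in the cervical region that supplies the diaphragm. Of 12 tested patterning factors, 8 were higher in DIA and 2 in EOM, with a median of -2.07, which was the same with signals under 80 counted as 80. All 8 reached the signal minimum on DIA arrays only, so their direction was largely set by that minimum. A further 47 factors on the array were not tested. Hoxa5 had signals of 6.42, 7.02 and 38.3 in EOM and 1147, 1083 and 993 in DIA, at least a 13.4-fold difference (log2 -6.48, SE 0.64, adjusted p = 4.75e-04). Hoxa3l1, which is not on that list and lies between Hoxa3 and Hoxa5 on chromosome 4 in the annotation, gave 18.4, 12.7 and 18.1 in EOM and 539, 421 and 453 in DIA, at least a 5.85-fold difference (log2 -4.85, SE 0.17, adjusted p = 7.87e-06). Hoxb2 gave 20.9, 10.4 and 35.0 in EOM and 513, 621 and 484 in DIA, at least a 6.70-fold difference (log2 -4.77, SE 0.40, adjusted p = 2.50e-04). All 3 genes were under background on every EOM array and well above it on every DIA array. The EDL mean was 778 for Hoxa5 and 202 for Hoxa3l1, but 35.8 for Hoxb2, where EDL lay with EOM. Hoxb3 was above background in both muscles, at 168 ± 71.0 in EOM and 416 ± 87.5 in DIA (log2 -1.39, SE 0.32, adjusted p = 0.0186), and it did not pass without array DIA control 1 or EOM control 3, or with no signal minimum (adjusted p = 0.122).

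Most Hox genes on the array were dimmer than the minimum. Of 23 with a probe set, 4 were tested, 8 were above background on all DIA arrays and on no EOM array, and 0 showed the reverse. In 14 of the 23 every DIA array was above every EOM array, and in 0 every EOM array was above, against 22.5% and 23.5% of the 11031 tested probe sets. Those shares are of brighter probe sets, since most of the 23 were under the minimum. The 14 include Hoxd3, which was under background on every array of both muscles. Hoxc5 is an example under the minimum, at a mean signal of 4.34 in EOM and 295 in DIA, with EDL at 19.2. It was at least 3.67-fold higher in DIA, and Hoxb4 at least 2.90-fold, with signals under 80 counted as 80. With no signal minimum 8 of the 23 passed by limma, all higher in DIA, and 5 of these were under the minimum (Hoxa9, Hoxb4, Hoxb6, Hoxc4 and Hoxc5). Others whose fitted value was far below 0 did not pass, among them Hoxa10 (adjusted p = 0.0879) and Hoxa7 (adjusted p = 0.111). The posterior genes Hoxa10 and Hoxa9 were high in EDL instead, with mean signals of 2197 and 1348, against 161 and 76.7 in DIA.

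Cofactors and other patterning genes followed. Meis2, a homeobox partner of Hox proteins, was under background in EOM at 71.4, 56.1 and 19.1 and reached 628, 562 and 486 in DIA, at least 6.95-fold higher (log2 -3.71, SE 0.46, adjusted p = 0.00127), and Meis1 was 4.44-fold higher in DIA (log2 -2.15, SE 0.20, adjusted p = 3.67e-04). Shox2, a homeobox gene of limb and heart development, gave 38.0, 76.7 and 60.8 in EOM and 942, 1298 and 977 in DIA, at least a 13.3-fold difference (log2 -4.24, SE 0.26, adjusted p = 7.10e-05). Tbx3 was higher in DIA (log2 -1.99, SE 0.23, adjusted p = 0.00108), as was Wt1, also a mesothelial marker, which was under background on all EOM arrays and at least 4.79-fold higher in DIA (log2 -3.46, SE 0.56, adjusted p = 0.00427). For Meis2, Meis1, Tbx3 and Wt1 the EDL means of 44.1, 176, 102 and 57.4 lay near those of EOM, so DIA was the muscle apart. Shox2 had an EDL mean of 226. The 2 factors higher in EOM were Pbx3, a further Hox partner, at 1075 ± 160.4 against 331 ± 112 (log2 1.74, SE 0.23, adjusted p = 0.00197), and Eya1, a cofactor of homeobox proteins in muscle precursors (log2 0.81, SE 0.18, adjusted p = 0.014). Pax6 was under background on all 6 arrays.

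Among regulators of muscle growth, 9 of 35 were higher in EOM and 7 in DIA, against 15.6% and 14.4% of all genes. Fst, which binds and blocks myostatin, and Mstn, myostatin itself, were both higher in EOM, at 657 ± 56.4 against 220.5 ± 112 (log2 1.68, SE 0.31, adjusted p = 0.0072) and at 467 ± 60.1 against 158 ± 18.8 (log2 1.56, SE 0.14, adjusted p = 3.00e-04). Igfbp5, a binding protein of insulin-like growth factors, gave 15991, 15601 and 17313 in EOM and 4329.7, 3958 and 5333 in DIA (log2 1.85, SE 0.13, adjusted p = 1.16e-04), and the receptor Igf1r was 2.01-fold higher in EOM (log2 1.00, SE 0.17, adjusted p = 0.00459). Vgll2 and Tead4, which act together on muscle genes, were higher in DIA, at 6.04-fold (log2 -2.59, SE 0.16, adjusted p = 6.57e-05) and 2.92-fold (log2 -1.54, SE 0.13, adjusted p = 2.22e-04). The myogenic factors Myod1 (log2 0.14, SE 0.18, adjusted p = 0.603), Myog (log2 -0.10, SE 0.13, adjusted p = 0.583) and Myf6 (log2 0.22, SE 0.11, adjusted p = 0.162) did not pass.

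Further genes higher in DIA had varied roles. Cda, cytidine deaminase, was under background on all EOM arrays at 12.2, 11.9 and 12.9 and reached 558, 592 and 820.2 in DIA, at least 8.09-fold higher. Hpd, an enzyme of tyrosine breakdown, was at least 9.20-fold higher in DIA, though its EOM values of 3.58, 51.3 and 82.2 spread widely around background. LOC102554789 and LOC100909739, loci without a described role here, were at least 12.3 and 9.81-fold higher in DIA. Cfi, complement factor I, which inactivates C3b, was at least 8.92-fold higher in DIA, at 111, 98.9 and 58.4 against 895, 795 and 881 (log2 -3.31, SE 0.23, adjusted p = 1.21e-04). The regulators Cd55 (log2 0.14, SE 0.11, adjusted p = 0.4) and Cd59b (log2 0.14, SE 0.12, adjusted p = 0.459), which protect cell surfaces from complement, did not pass.

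Fuel use is read here from genes of glycolysis, which breaks down glucose, and of fatty acid oxidation, which feeds mitochondria. The respiratory chain moved little: of 72 subunits, 5 were higher in EOM, 1 in DIA and 66 did not pass, with all 72 between log2 -0.31 and 0.73. Cox8a and Cox7a1, subunits of cytochrome oxidase, had the largest differences, at 1.64-fold and 1.66-fold higher in EOM. The count in EOM was 3 when array DIA control 1, DIA control 2 or EOM control 3 was left out, and the 1 gene higher in DIA, Ndufv3, passed in only 1 of the 6 fits that left out an array.

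Glycolysis had 7 of 22 genes higher in EOM and 2 in DIA, with a median of 0.12, against 15.6% and 14.4% of all genes. For enolase, aldolase and phosphoglycerate mutase, a form of other tissues passed and the muscle form did not. Eno1 was at 14025, 14244 and 14633 in EOM and 4267, 4069 and 4239 in DIA (log2 1.77, SE 0.08, adjusted p = 2.26e-05), while the muscle enolase Eno3 did not pass (log2 0.09, SE 0.09, adjusted p = 0.456). Hk1 was 2.93-fold (log2 1.55, SE 0.17, adjusted p = 7.86e-04) and Aldoc 2.54-fold higher in EOM (log2 1.35, SE 0.14, adjusted p = 6.68e-04), while the muscle aldolase Aldoa (log2 0.01, SE 0.09, adjusted p = 0.96) did not pass. Pgam1 passed (log2 0.85, SE 0.13, adjusted p = 0.00351) and muscle Pgam2 did not (log2 -0.19, SE 0.09, adjusted p = 0.157). Slc16a1, a carrier of lactate into oxidative cells, was 2.49-fold higher in DIA (log2 -1.32, SE 0.11, adjusted p = 2.39e-04). Ldhb (log2 -0.13, SE 0.09, adjusted p = 0.308) and the glycogen phosphorylase Pygm (log2 -0.04, SE 0.08, adjusted p = 0.74) did not pass, and Pygm had the opposite sign after quantile normalization.

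Fatty acid genes leaned to DIA, with 12 of 34 higher there, 4 higher in EOM and a median of -0.28. Without array EOM control 1 or EOM control 2 the count in DIA was 7, and the count in EOM was 2 without any 1 of 5 arrays, which were all but DIA control 3. Hadh, a dehydrogenase of beta-oxidation, had 2069.6, 1906 and 1982 in EOM and 10314, 8381 and 10779.5 in DIA (log2 -2.30, SE 0.12, adjusted p = 3.58e-05). Lpl, which frees fatty acids from lipoproteins, gave 10299 ± 464 in EOM and 20357 ± 1790.1 in DIA (log2 -0.98, SE 0.10, adjusted p = 5.84e-04), and Cpt1b, the carrier step into mitochondria of muscle, was 1.59-fold higher in DIA (log2 -0.67, SE 0.10, adjusted p = 0.00331). Acsl3 and Acsl6, which activate fatty acids, were 2.59-fold and 2.07-fold higher in EOM.

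Fat cell markers moved the same way, and Lpl and Fabp4 are on both lists. Of 9 tested adipocyte markers, 6 were higher in DIA and 0 in EOM by limma (7 and 0 at an unadjusted p under 0.05). Adipoq, Cidec, Plin1 and Pck1 reached the signal minimum on DIA arrays only, so the direction of these markers was largely set by that minimum. The list summed to 17802 to 18899 in EOM and 30487 to 40175 in DIA. Lpl had mean signals of 10299 in EOM and 20357 in DIA, and Fabp4 had 4656 and 7956. The sum therefore mostly reflects Lpl and Fabp4 and says little of the dimmer markers. Adipoq, the fat cell hormone adiponectin, gave 212, 166 and 207 in EOM and 521, 1947 and 967 in DIA (log2 -2.36, SE 0.43, adjusted p = 0.00694). Lep, leptin, had mean signals of 18.5 in EOM and 13.1 in DIA, both under background. Hadh and Cpt1b are not on the marker list, and the part of fat tissue in the other differences was not tested.

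**Figure D3:**
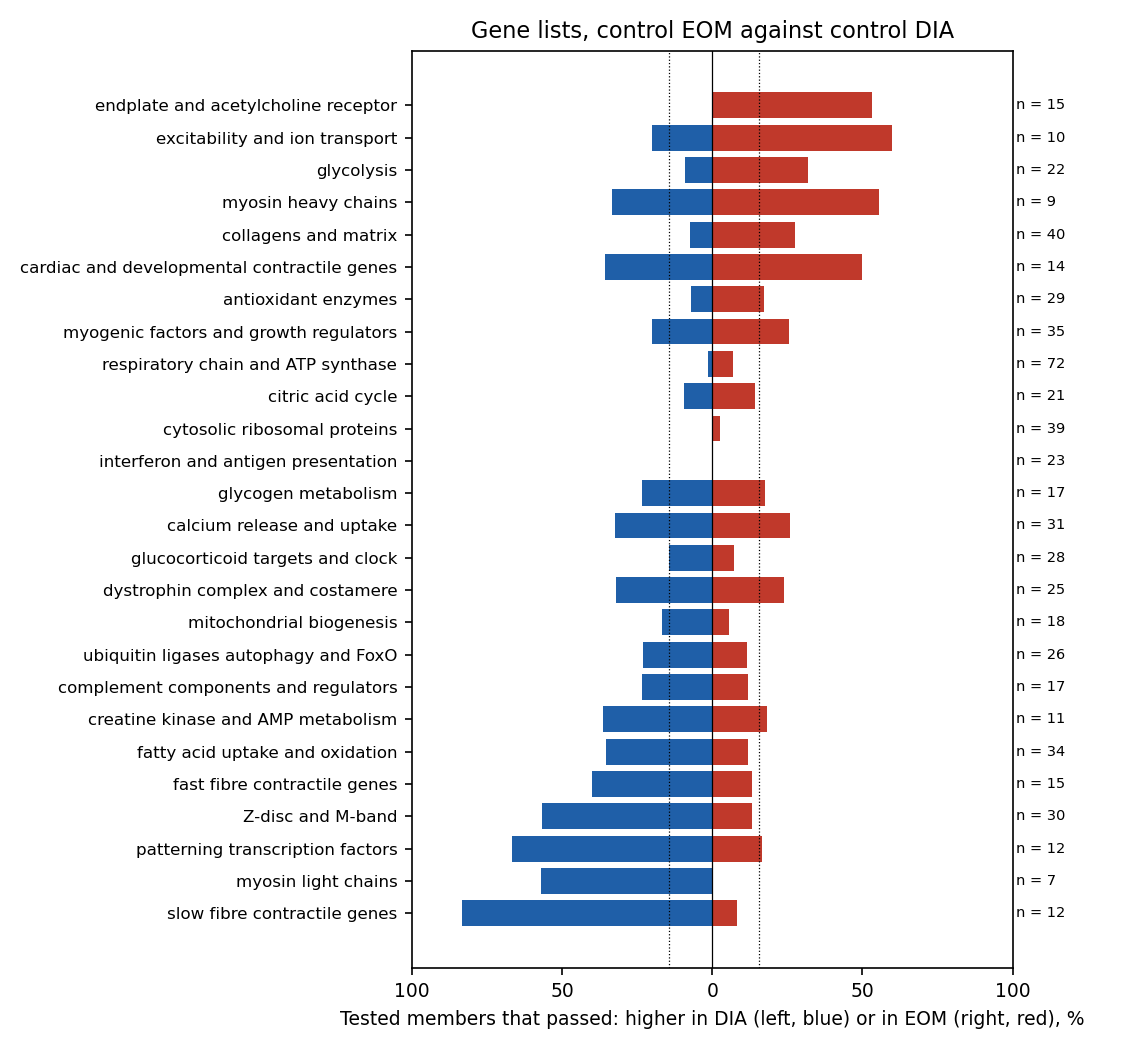
Share of tested members of 26 gene lists that were higher in EOM (red, to the right) or in DIA (blue, to the left), in percent, with the number tested at the right edge. Dotted lines mark the 15.6% and 14.4% of all 7273 genes. Endplate genes passed only toward EOM, slow contractile genes passed mostly toward DIA, and the interferon list has no bar since 0 of its 23 members passed.

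Matrix genes had 11 of 40 higher in EOM and 3 in DIA, with 7 in EOM when array DIA control 1 or EOM control 3 was left out, 1 in DIA without DIA control 1 or EOM control 1, and 6 in the fit of all 18 arrays. Postn, periostin, gave 1688, 1959 and 2226 in EOM and 439, 720.0 and 565 in DIA (log2 1.79, SE 0.19, adjusted p = 7.62e-04), and Col14a1, a collagen of fibril surfaces, was higher in DIA (log2 -1.31, SE 0.21, adjusted p = 0.00422). The remaining lists are given in the order of members higher in EOM, higher in DIA and tested. Of all genes 15.6% were higher in EOM and 14.4% in DIA, and several of these lists lay near those shares. The counts were 3, 4 and 17 for glycogen metabolism, 3, 2 and 21 for the citric acid cycle, 1, 3 and 18 for mitochondrial biogenesis, and 2, 4 and 11 for creatine kinase and AMP metabolism. They were 5, 2 and 29 for antioxidant enzymes, 6, 8 and 25 for the dystrophin complex and costamere, 3, 6 and 26 for ubiquitin ligases and autophagy, and 2, 4 and 28 for glucocorticoid targets and clock genes. Complement gave 2, 4 and 17, cytosolic ribosomal proteins 1, 0 and 39, and interferon and antigen presentation 0, 0 and 23. At an unadjusted p under 0.05, limma put 2 interferon genes higher in EOM and 0 in DIA. The counts of these lists were small, and leaving out 1 array moved some of them. Dystrophin complex genes higher in EOM numbered 3 without EOM control 3. Complement genes higher in EOM numbered 5 without EOM control 1, 0 without DIA control 1 and 1 without DIA control 3, EOM control 2 or EOM control 3, and those higher in DIA 2 without DIA control 1, DIA control 3, EOM control 1 or EOM control 3. Citric acid cycle genes numbered 1 in EOM without EOM control 1 or EOM control 3, and 1 in DIA without DIA control 3 or any 1 EOM array. Creatine kinase and AMP genes numbered 1 in EOM without DIA control 3, EOM control 1 or EOM control 3, and 2 in DIA without DIA control 3, EOM control 1 or EOM control 2. Glucocorticoid and clock genes numbered 1 in EOM without any 1 array but DIA control 1, and mitochondrial biogenesis genes 2 in EOM without DIA control 2. Ubiquitin and autophagy genes higher in EOM numbered 0 or 1 without any 1 array, and interferon genes higher in DIA 3 without EOM control 2. Antioxidant genes higher in DIA numbered 4 without DIA control 2. Csrp3, a stretch sensor at the Z-disc, was higher in DIA (log2 -0.71, SE 0.13, adjusted p = 0.0065). Rgs2, which shortens G protein signals, was 2.42-fold higher in EOM (log2 1.27, SE 0.11, adjusted p = 3.01e-04).

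Markers of tissue around the muscle fibers differed as well. The mesothelium is the thin cell sheet on the faces of the diaphragm, and all 6 tested mesothelial markers were higher in DIA with a median of -2.90 (-2.45 with signals under 80 counted as 80). Each of them reached the signal minimum on DIA arrays only, so their direction was largely set by that minimum. A further 5 on the array were not tested. Msln, mesothelin, gave 169, 130.2 and 159.6 in EOM and 1224, 689 and 1011 in DIA (log2 -2.64, SE 0.22, adjusted p = 2.26e-04), and Upk1b gave 139, 51.4 and 52.5 and 976, 682 and 868, at least 8.66-fold higher in DIA (log2 -3.53, SE 0.38, adjusted p = 7.56e-04). The 11 markers on the array summed to 882 to 1193 in EOM and 4166 to 7057 in DIA, and Calb2 was at 63.8 in EOM and 75.8 in DIA in the mean, under background. Of 10 liver markers on the array 2 were tested, and both were higher in DIA, the only muscle in which they reached the signal minimum. Alb, albumin, was at 125, 34.2 and 55.3 in EOM and at the very uneven 929.5, 5384 and 217 in DIA, at least 11.1-fold higher (log2 -4.05, SE 1.09, adjusted p = 0.0311). It did not pass without array DIA control 1, EOM control 2 or EOM control 3, and its dimmer probe set did not pass (adjusted p = 0.0751). Cyp2e1, a cytochrome P450 of liver, was at 105, 118 and 132 in EOM and 463, 475 and 552 in DIA (log2 -2.07, SE 0.12, adjusted p = 6.33e-05). All 3 tested mast cell markers were higher in DIA, led by Cpa3 (log2 -1.02, SE 0.17, adjusted p = 0.0047), and none passed in the fit of all 18 arrays. Cma1 and Tpsb2 reached the signal minimum on DIA arrays only, so their direction was largely set by that minimum. A further 8 members of the mast cell and neutrophil list were on the array and not tested. Amy1, an amylase, was the only tested member of the lacrimal and salivary list and was higher in DIA (log2 -1.99, SE 0.14, adjusted p = 1.08e-04).

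Other lists moved little or unevenly. Endothelial markers gave 0 of 12 in either direction by limma, and 2 in EOM and 0 in DIA at an unadjusted p under 0.05. Without array DIA control 2 the count in EOM was 4. Macrophage markers gave 2 of 11 higher in EOM, C1qc and Cd68, and 0 to 7 when single arrays were left out, with 7 without EOM control 1. Red blood cell markers gave 0 of 3 and T and B cell markers 0 of 1 by limma, and 1 and 0 in DIA at an unadjusted p under 0.05. Of the 6 tested markers of surface epithelium, 2 were higher in EOM, Bpifa1 (at least 3.88-fold; log2 2.00, SE 0.20, adjusted p = 5.05e-04, which did not pass in the fit of all 18 arrays) and Krt10, and 2 in DIA, Krt19 and Dsp. Bpifa1, Krt10, Krt19 and Dsp each reached the signal minimum only in the muscle where they were higher, and so did Cd68. Smooth muscle gave 2 of 8 each way, tendon 1 in EOM and 2 in DIA of 4, lipid glands of the orbit 1 of 8 in DIA, and melanocytes and exocrine pancreas 1 of 1 each in DIA. The smooth muscle, tendon, gland, epithelium and pancreas counts moved by more than 1.5 times without single arrays. Markers of cartilage and bone had no tested member. The part of these tissues in the muscle differences was not tested.

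**Figure D4:**
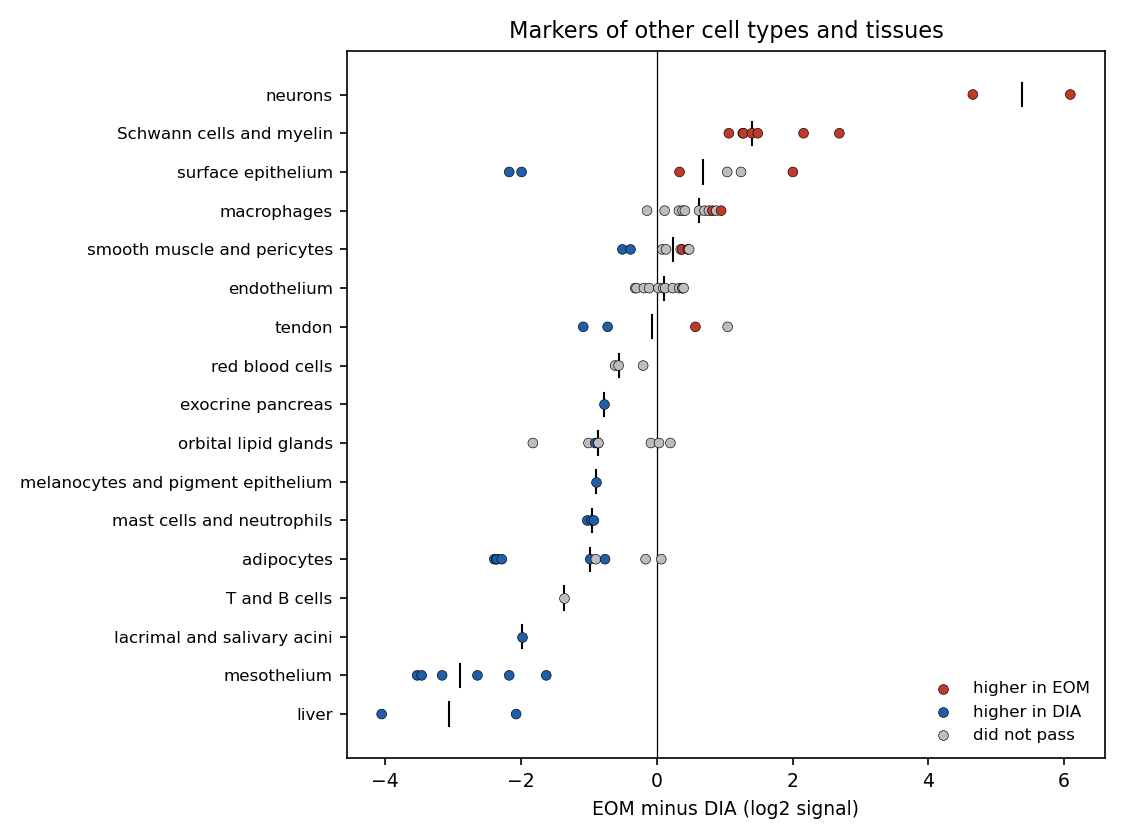
Differences (EOM minus DIA, log2 signal) of the tested markers of 17 other cell types and tissues in control arrays, 1 point per gene, with the median of each list as a bar. Red points were higher in EOM, blue points were higher in DIA and grey points did not pass. The tested neuron and Schwann cell markers lie on the EOM side, and the tested mesothelial markers on the DIA side. The neuron, mesothelial and liver markers shown reached the signal minimum only in the muscle where they were higher. So did some Schwann cell, adipocyte, mast cell, macrophage and surface epithelium markers. The side of all these markers was therefore largely set by that minimum.

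The contrast was then read in arrays that had no part in the calls, the 3 EOM and 3 DIA arrays of EAMG rats. Of 1644 probe sets higher in control EOM, 1588 (96.6%) had the same sign in EAMG arrays and 878 also passed there, and of 1572 higher in control DIA, 1529 (97.3%) had the same sign and 819 passed. By themselves the EAMG arrays called 2219 of 11031 probe sets, or 20.1%, a count of 1473 without EOM EAMG 1 and 1364 without EOM EAMG 3. Probe sets that did not pass in controls kept their sign in 73.2% of cases. Differences of at least 2-fold held their sign for 447 of 451 probe sets higher in EOM and 371 of 376 higher in DIA. Myh13 differed by 10.66 in EAMG arrays (adjusted p = 2.37e-05 from limma), Hoxa5 by -6.13 (adjusted p = 7.08e-04) and Chrna1 by 2.63 (adjusted p = 4.26e-05). A single probe set passed with opposite signs, Nr4a3, an immediate early nuclear receptor, at 1.25 in control and -1.50 in EAMG arrays. Rgs2, higher in control EOM, lay at -0.01 in EAMG arrays. Neither of these genes passed the test of the change itself that follows.

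The change of the EOM minus DIA difference with EAMG was tested in 1 model of the 12 arrays, and 2 of 11031 probe sets passed, or 0.0181%. Both belong to Pln. Its brighter probe set had 5833 ± 193 in EOM and 541 ± 54.8 in DIA of EAMG rats (SD, n = 3), against 5501 ± 75.0 and 2608 ± 56.9 in controls, so that the difference widened by 2.36 on the log2 scale (adjusted p = 2.00e-05 from limma). The second probe set widened by 1.71 (adjusted p = 3.37e-04). The second probe set had 1411 ± 89.2 in EOM and 736 ± 44.4 in DIA of controls, against 1990 ± 61.1 and 317 ± 20.3 in EAMG. In both probe sets the DIA mean was lower and the EOM mean higher in EAMG than in controls. The count was 4 without array DIA control 3 and 6 without DIA EAMG 1 or EOM EAMG 2.

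**Figure D5:**
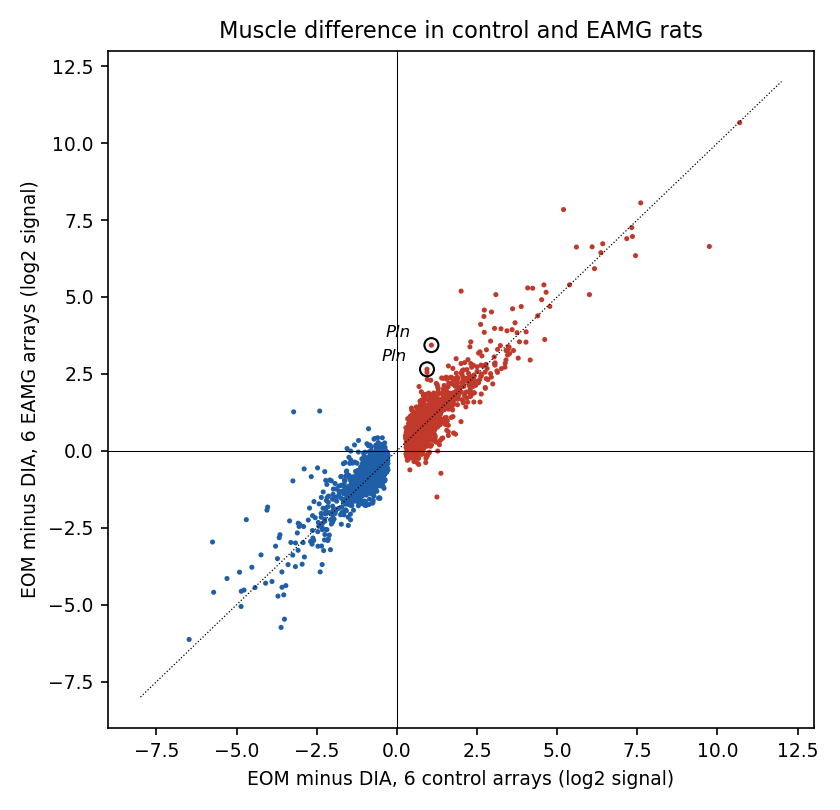
EOM minus DIA difference (log2 signal) in the 6 control arrays (horizontal axis) and in the 6 EAMG arrays (vertical axis) for the 3216 probe sets that passed in controls, red for those higher in EOM and blue for those higher in DIA, with equality dotted. Circles mark the 2 Pln probe sets, the only ones whose difference changed between control and EAMG rats by limma, and they lie above the dotted line.

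Control EDL gave a further level for each gene, from a fit of the 9 control arrays, in which both contrasts with EDL share its 3 arrays, and its values are set side by side. For Myh13, Myh3 and Frzb, EOM lay above EDL by 6.41, 5.93 and 6.32 on the log2 scale, while the DIA arrays were under or near background. For Ryr3 and Mylk3, DIA lay above EDL by 4.43 and 3.53 while EOM differed from EDL by 1.47 and -0.05. For Myom2 and Smyd2 EOM was the muscle apart, at -6.06 and -4.52 against EDL, with DIA at -0.76 and -0.85. Sln set all 3 apart, with DIA 5.67 and EOM 3.08 above EDL. Chrna1, Lrp4 and Chrne lay 2.21, 2.28 and 1.79 above EDL in EOM, and DIA differed from EDL by 0.12, 0.22 and -0.15.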

How the data were processed

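Of the 18 arrays of the series, the 3 control EOM and 3 control DIA arrays made the comparison. RNA was pooled from several rats for each array, 3 per the labels and 4 to 5 per the methods, so p-values cover the spread between pools. The authors hybridised labelled RNA to rat 230 expression arrays and deposited signal intensities on a linear scale from GCOS 2.0, scaled to a mean of 500.0 on each array after the top and bottom 2% were removed. Array precision is limited by their number.

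The deposited intensities were turned into log2 values with nothing added. The 57 array control probe sets were left out, and a signal of at least 400 on at least 1 of the 6 arrays was required. Differences were tested with limma 3.58.1 in R 4.3.3 (lmFit and eBayes, prior degrees of freedom 3.039), with Benjamini-Hochberg adjustment over 11031 probe sets, and the scripts were tested on simulated data. Python 3.11.15 was used for counts and figures.

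Gene names came from the platform annotation. Of 31042 probe sets, 20826 had 1 symbol, 436 several and 9780 none, and only those with 1 were named. Genes named were the 15 largest differences each way without overlap, up to 6 passing members of each of 45 lists (the 2 largest where none passed) and a set list of myosin, calcium, endplate, complement, Hox and eye muscle genes. A gene of the first set is not reported here. Other genes in the text were chosen after their values were seen. The comparison and lists were chosen with earlier results of these data known. EAMG arrays were fitted alone and, for the change of the difference, with the controls. Alternatives were the signal minimum, scaling, an added value of 100, a floor of 80, the arrays fitted, a replicate block, leaving out each array and a version of the study's rule (7 of 9 ratios of at least 2-fold) on signals alone, without its probe-level change calls. Sequences were taken from RefSeq (GRCr8).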

Additional observations from a re-analysis of the deposited data

Results flagged for a closer look

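The EOM minus DIA difference of Pln, phospholamban, changed between control and EAMG arrays by a test of the change itself. The change was 2.36 on the log2 scale for its brighter probe set (adjusted p = 2.00e-05 from limma) and 1.71 for its dimmer one (adjusted p = 3.37e-04), and both passed with all 18 arrays, with the replicate block and without each array in turn.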

How the results depend on the processing

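With no signal minimum, 1396 probe sets passed, 759 higher in EOM and 637 in DIA. The version of the study's rule on signals alone gave 631, 343 and 288. Leaving out 1 array gave 2085 to 3153 probe sets in all, 1042 to 1682 higher in EOM and 1043 to 1471 in DIA, with the lowest counts (2085, 1042 and 1043) without EOM control 3. The counts of at least 2-fold ranged from 434 to 461 in EOM and 356 to 386 in DIA. In EAMG arrays leaving out 1 array gave 1364 to 1813, and leaving out both arrays of number 2 gave 1158. The count whose difference changed with EAMG ranged from 2 to 6. The other alternatives kept the main count within 1.5 times, from 2528 with all 18 arrays to 3337 with 100 added, and no call of the 3216 changed sign in any of these fits. Quantile normalization turned the share of calls higher in EOM from 51.1% to 49.1% and median centring to 47.7%. Of 201 named genes, 74 lost their call with no minimum, 25 with all 18 arrays and 12 to 29 without 1 array. Leaving out 1 array moved no count of the myosin heavy chain, slow contractile, Z-disc, calcium, endplate, ion transport, glycolysis, patterning, growth, Schwann cell, neuron, adipocyte or mesothelium lists by more than 1.5 times. Pygm, which had not passed, went from -0.044 to 0.054 on the log2 scale with quantile normalization. The cause of these differences was not tested, except that the fits without 1 array hold fewer samples and the fit with no minimum adjusts over more probe sets. The labels do not say whether a shared replicate number marks 1 repeat. Deviations of same-numbered EOM and DIA arrays correlated at 0.146, -0.0068 and 0.180, not all above 0.1, so the arrays were not treated as paired. With the replicate block 2974 probe sets passed, including 2741 of the 3216, and 12 named genes lost their call and 2 gained one. Signals near background limit what can be said of dim genes, as for most Hox genes.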
